A study of Arabidopsis thaliana with 3 samples.

Results

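Dry Arabidopsis thaliana seed of ecotype Columbia was compared with seed of the same ecotype that had taken up water for 3 days on Murashige and Skoog medium under long days, with no inhibitor in the medium. Total RNA of each state was hybridised to 1 Affymetrix ATH1 array, an oligonucleotide array that reads each transcript with one or more probe sets. These 2 arrays were taken, by their labels, out of a series of 3; the remaining array held seed imbibed with trichostatin A, an inhibitor of histone deacetylases, and entered only the scaling. Every probe set outside the spiked-in controls was used, 22746 of 22810 in the table. The labels name neither the seed lot nor how many seeds were extracted, and each array reads a whole-seed extract, in which fewer cells of a type and less RNA per cell cannot be told apart.

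A dry seed carries messenger RNA made while it matured on the mother plant. On imbibition this stored RNA is degraded and replaced as the embryo resumes respiration, mobilises its reserves, loosens its walls and grows into a seedling. Late embryogenesis abundant proteins and seed storage proteins are the familiar products of the stored RNA, and the photosynthetic and ribosomal genes those of the seedling; the genes of other functions that moved with them are described here.

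With a single array a side no difference has a replicate check, and no test was made. Signals were scaled so that both arrays had the same trimmed mean, and signals under 10.7, the 40th percentile, were counted as at the floor. A gene is said to have risen or fallen only where its scaled signals differed at least 2-fold, and a fold against a signal at the floor is given as "at least". Log2 ratios are imbibed over unimbibed seed. As a gauge of technical error, the ratios of different probe sets for the same gene differed with an SD of 0.76 on the log2 scale over 42 genes, so a change near 2-fold lies close to that spread. The ratio of the 3′ to the 5′ actin signal, which reads RNA integrity, was 1.82 in unimbibed and 4.66 in imbibed seed, against 1.31 and 0.876 for GAPDH and 3.87 and 3.17 for ubiquitin. The part of RNA integrity in the ratios was not tested.

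Of 16246 probe sets above the floor on at least one array, 3669 (22.6%) were higher and 3425 (21.1%) were lower in imbibed seed. Higher calls made up 51.7% of all calls, but 75.7% with the signals as deposited, 76.7% with the hybridisation controls set equal and 92.3% with the poly-A controls, which are spiked into the RNA before labelling, set equal. These choices raised the median log2 ratio of all probe sets by 0.53, 0.55 and 1.21. All ratios below are therefore relative to the average transcript of each array.

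The brightest probe sets were mostly different ones in the 2 states. None of the 20 brightest probe sets of unimbibed seed was among the 20 brightest of imbibed seed, and the lists of the 100 brightest shared 8. Isocitrate lyase, the glyoxylate cycle enzyme ICL, was the single named gene among those 8, with signals of 5331 and 4792. The direction depended on the starting level. Of 199 probe sets with an unimbibed signal over 1000, 171 were lower and 4 higher in imbibed seed, with a median log2 ratio of -6.19. Of 159 with an imbibed signal over 1000, 121 were higher and 5 lower, with a median of 1.95. A probe set that is bright on one array tends to be dimmer on any other array, so these shares describe the levels and support no statement about loss against gain.

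**Figure D1:**
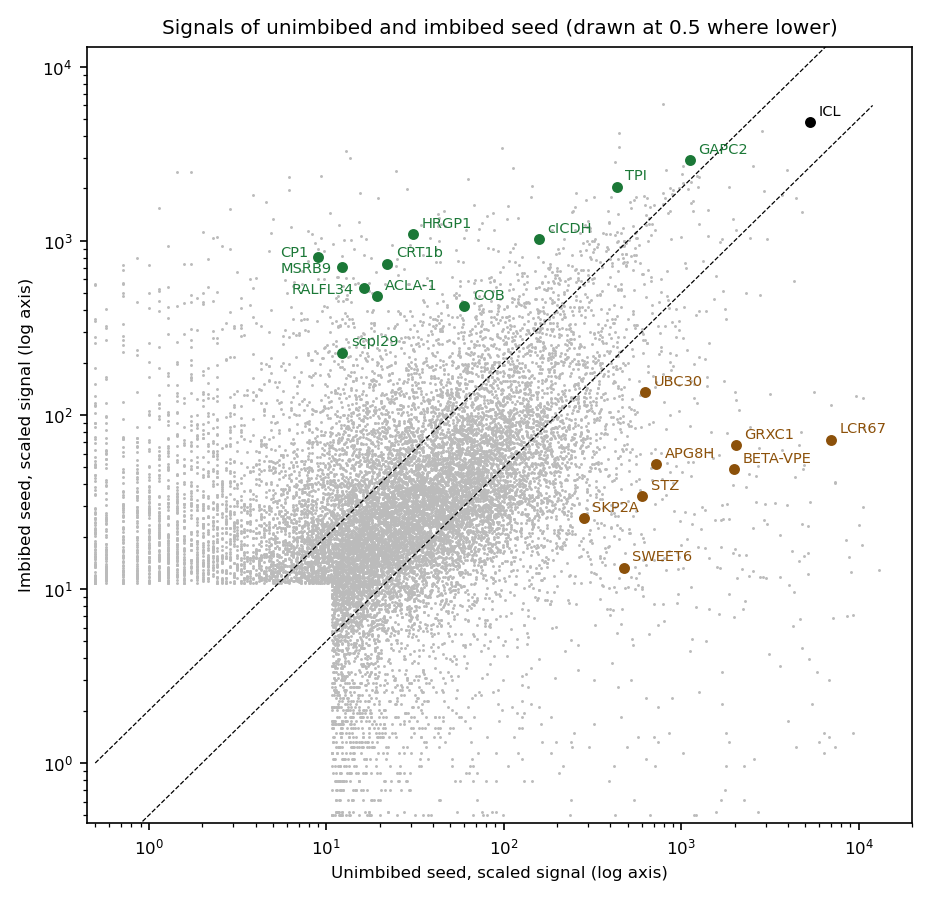
Scaled signal of each probe set in unimbibed seed (x axis) and imbibed seed (y axis), both log axes, for the 16246 probe sets above the floor on at least one array. Grey points are probe sets, dashed lines mark 2-fold, and coloured points are named genes of the text; GRXC1 and LCR67 lie far below the diagonal and MSRB9, HRGP1 and CRT1b far above it.

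Among 8953 measured loci paired with a single gene, 1800 (20.1%) rose and 1927 (21.5%) fell, with a median log2 ratio of -0.04. Only loci with a gene symbol could enter the gene families below. Of 1209 such measured loci, 359 (29.7%) rose and 243 (20.1%) fell, with a median of 0.17, and the families are read against these values. A share of members near them, as in the bHLH factors and UDP-glycosyltransferases that rose, says nothing particular about a family. These values are not matched for level. Of 2482 probe sets with an unimbibed signal over 100 and up to 1000, 55.0% were lower in imbibed seed. Between the floor and 100 it was 18.4% of 10283. A family bright in dry seed can thus hold many members that fell without being particular in this. A locus counts as measured where a signal was above the floor on at least one array, so the counts leave out family members that were dim in both states. Family members that are alike in sequence may share signal on the array.

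Genes that break down and recycle proteins were among the stored transcripts. All 9 ATG8 genes, whose ubiquitin-like products are fixed to the membrane of the forming autophagosome, fell, with a median log2 ratio of -1.65 that turned to 0.03 with the poly-A controls set equal and stayed negative under the other scalings. The count depended on the scaling: 4 fell and 0 rose with the signals as deposited, 3 fell and 0 rose with the hybridisation controls set equal, and 2 fell and 0 rose with the poly-A controls set equal. ATG8H fell from 503 to 32.2, 15.6-fold. APG8H, also named ATG8I, fell from 723 to 52.2, 13.9-fold, and ATG8F fell from 450.2 to 90.4, 4.98-fold. These were the brightest members in dry seed, and they fell furthest; the smallest decline, that of ATG8G, was from 62.9 to 30.003, 2.1-fold. ATG3, the enzyme that transfers ATG8 to lipid, had signals of 69.1 and 56.5, within 2-fold.

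Most ubiquitin-conjugating enzymes stayed within 2-fold. Of 11 measured, 3 fell, 1 rose and 7 stayed within 2-fold. The median of -0.41 was 0.30, 0.33 and 1.27 with the signals as deposited, the hybridisation controls and the poly-A controls set equal. UBC30 fell from 626 to 135, 4.65-fold and UBC32, an enzyme of the endoplasmic reticulum, fell from 274 to 66.5, 4.11-fold. UBC20 rose from 17.8 to 69, 3.87-fold, whereas its close relative UBC19 had signals of 83.6 and 98.3. UBC28, among the brightest of the family in both states, had 679.7 and 623. The F-box protein SKP2A, which marks cell cycle regulators for destruction, fell from 283 to 25.6, 11-fold. XERICO, a RING-H2 protein that promotes the accumulation of abscisic acid, fell from 295 to 43.1, 6.85-fold. The U-box ligases PUB22 and PUB23, known as negative regulators of the drought response and of immunity, rose from below the floor (0.718) to 29.1, at least 2.71-fold and from below the floor (1.29) to 33.1, at least 3.08-fold. Both were below the floor in dry seed.

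Of 12 ubiquitin-specific proteases, which remove ubiquitin again, 5 fell and 2 rose, and the median of -0.59 became 0.09, 0.13 and 0.94 under the same alternatives. UBP18 had the greatest decline of the family, from 165 to 20.9, 7.89-fold. UBP19 and UBP21 were the members that rose, UBP19 from 13.2 to 33.6, 2.54-fold.

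The ESCRT proteins, which sort ubiquitinated membrane cargo into vesicles bound for the vacuole, fell in 6 of 11 measured genes and rose in 1, with a median of -1.03 that was 0.65 with the poly-A controls set equal. Of these genes, 2 fell and 2 rose with the signals as deposited, 1 fell and 2 rose with the hybridisation controls set equal, and 0 fell and 5 rose with the poly-A controls set equal. All that fell under the scaling used encode subunits of the ESCRT-III group or proteins associated with it. VPS2.1 fell from 145 to 52, 2.8-fold, VPS46.2 from 247 to 106, 2.32-fold and VPS60.2 from 61.2 to 18.5, 3.31-fold. VPS2.2 rose from below the floor (2.59) to 27.2, at least 2.53-fold, opposite to its paralog VPS2.1. The exocyst, which tethers secretory vesicles to the plasma membrane, had 7 of 7 measured genes within 2-fold, from -0.60 to 0.51 on the log2 scale. This too depended on the scaling. With the signals as deposited 1 exocyst gene rose, with the hybridisation controls set equal 2 rose, and 0 fell in either. With the poly-A controls set equal 6 rose and 0 fell, with a median of 1.43.

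Genes of RNA synthesis and RNA processing were lower in their median ratio under the scaling used. Of 12 measured subunits of the nuclear RNA polymerases, 8 fell and 0 rose, with a median of -1.17 that was 0.51 with the poly-A controls set equal and negative under the other scalings. Few of these calls were left otherwise, where 2 fell and 0 rose with the signals as deposited, 1 fell and 0 rose with the hybridisation controls set equal, and 0 fell and 3 rose with the poly-A controls set equal. NRPA1, the largest subunit of the polymerase that makes ribosomal RNA, fell from 93.3 to 19.8, 4.7-fold. NRPC2, of the polymerase that makes transfer RNA, fell from 57.3 to 17.2, 3.33-fold. NRPB12, a small subunit shared between polymerases, fell from 128 to 40.4, 3.17-fold. The dimmest subunits, such as NRPB9A at 13.2 and 13.1, stayed within 2-fold.

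Of 17 splicing and RNA-binding genes, 10 fell and 1 rose, with a median of -1.13 that was 0.56 with the poly-A controls set equal. Of the same list, 3 fell and 2 rose with the signals as deposited, 3 fell and 2 rose with the hybridisation controls set equal, and 0 fell and 6 rose with the poly-A controls set equal. The U2AF genes, whose products recognise the 3′ splice site, were among those that fell under the scaling used. ATU2AF65A fell from 119 to 39.9, 2.99-fold, ATU2AF35A from 128 to 46.8, 2.73-fold and U2AF35B from 92.2 to 42.3, 2.18-fold. The glycine-rich RNA-binding protein AtRZ-1b fell from 92.7 to 18.7, 4.96-fold. The LSM proteins form rings on RNA, one nuclear and active in splicing, the other cytoplasmic and active in messenger RNA decay. LSM6A, which is part of both, fell from 92.1 to 22.5, 4.1-fold, while LSM1A and LSM1B, which define the cytoplasmic ring, had 56.9 and 71, and 41 and 40.5. ATRBP45C was the member that rose, from 169 to 385, 2.27-fold. Among other nuclear genes, RAD4, of DNA repair, fell from 139 to 18.2, 7.64-fold, SEH1H, of the nuclear pore, from 106 to 20.5, 5.18-fold, and the transcriptional coactivator KIWI from 238 to 23.2, 10.3-fold.

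**Figure D2:**
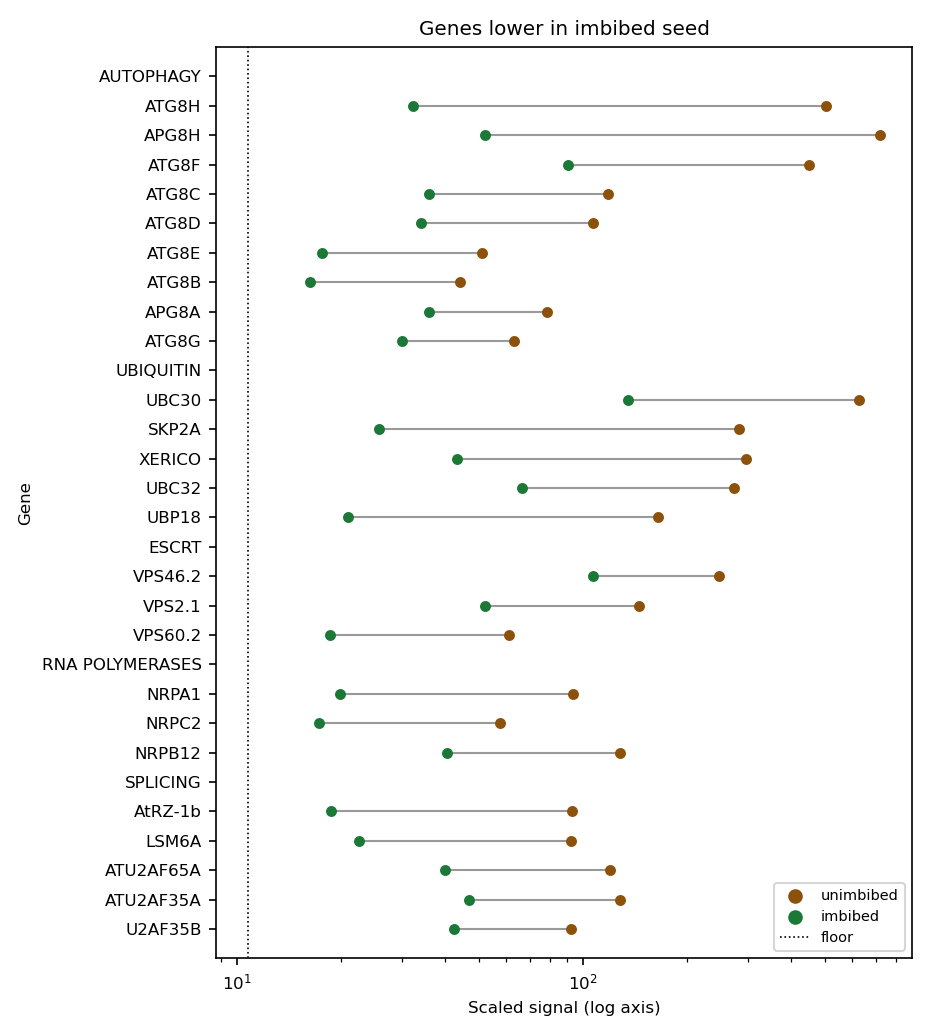
Scaled signals of named genes of protein turnover, membrane sorting and RNA metabolism in unimbibed seed (brown) and imbibed seed (green), joined by a line for each gene, on a log axis; the dotted line is the floor of 10.7. Every gene drawn was lower in imbibed seed, ATG8H by 15.6-fold and NRPB12 by 3.17-fold; with the poly-A controls set equal the smaller of these declines, among them those of ATG8G, NRPB12, VPS2.1, VPS46.2 and the U2AF genes, turn into ratios above 1.

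Reserve metabolism changed its make-up. The vacuolar processing enzyme BETA-VPE, which matures storage proteins in the developing seed, fell from 1984 to 48.9, 40.6-fold, and the aspartic proteinase APA1 fell from 1728 to 514, 3.36-fold. Other proteases were higher: the cysteine proteinase CP1 rose from below the floor (9.05) to 807, at least 75.2-fold and the subtilase SBT1.3 from 14.1 to 336, 23.9-fold. Of 19 measured serine carboxypeptidase-like genes, 10 rose and 0 fell, with a median of 1.06. With the floor at the 25th percentile 12 rose and 1 fell. In this family scpl29 rose from 12.4 to 228, 18.4-fold, scpl25 from 22 to 274, 12.5-fold and scpl35 from 56.6 to 549.9, 9.71-fold. A further 10 of the 29 with a probe set were below the floor in both states. SDP1, the lipase that opens the breakdown of seed oil, fell from 197 to 35.4, 5.57-fold. The β-oxidation gene AIM1 fell from 321 to 119.6, 2.68-fold, while ICL, given above, stayed within 2-fold.

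Under the scaling and floor used, signals of most nuclear genes of respiration rose, and those of most respiratory genes of the mitochondrial genome fell. Of 13 nuclear genes of the mitochondrial citrate cycle and respiratory chain, 8 rose and 1 fell, with a median of 1.07. SDH2-1, the iron-sulfur subunit of succinate dehydrogenase, rose from 58.1 to 449, 7.74-fold, by 1 of its 2 probe sets. The other was below the floor in both states. IDH-VI, of isocitrate dehydrogenase, rose from 16.2 to 94.5, 5.82-fold, and cytochrome c, CYTC-1, from 317 to 861, 2.72-fold. The other cytochrome c gene, CYTC-2, had 189 and 188. The gene that fell was NDB2, an alternative NADH dehydrogenase known from stress responses, from 176 to 57.2, 3.07-fold. Its relative NDB3 rose from below the floor (9.77) to 67.8, at least 6.32-fold. ISU1, the scaffold on which mitochondria build iron-sulfur clusters, fell from 879.7 to 180.2, 4.88-fold. Of 8 measured genes that the mitochondrial genome encodes for complex I and cytochrome oxidase, 6 fell and 0 rose, with a median of -1.73. The cytochrome oxidase genes cox1 and cox2 fell from 132 to 32.9, 4.01-fold and from 169 to 17.5, 9.62-fold, and nad9, of complex I, fell from 67.2 to 14.7, 4.59-fold, while nad4, of the same complex, had 31.3 and 36. With the poly-A controls set equal 1 of these mitochondrial genes fell and 1 rose. With the floor at the 60th percentile 3 of them fell and 0 rose, with a median of -0.75. These mitochondrial genes were grouped after their values were seen, and the difference between the nuclear and mitochondrial groups was not tested. Neither was it tested whether the array reads nuclear and mitochondrial transcripts alike.

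In the cytosol, triose-phosphate isomerase, TPI, rose from 435 to 2053, 4.72-fold and the glyceraldehyde-3-phosphate dehydrogenase GAPC2 from 1126 to 2902, 2.58-fold. Pyruvate decarboxylase PDC2, which leads into ethanol fermentation, fell from 565 to 104, 5.44-fold. The cytosolic isocitrate dehydrogenase cICDH rose from 157 to 1026, 6.52-fold. ATP-citrate lyase, which makes cytosolic acetyl-CoA, rose in 3 of 4 measured genes. ACLA-1 rose from 19.3 to 480.5, 25-fold, ACLA-2 from below the floor (2.01) to 112, at least 10.4-fold and ACLB-1 from 14.4 to 177, 12.3-fold, while ACLA-3, the one well above the floor in dry seed, had 138 and 106. Starch synthesis genes were near or below the floor in dry seed: SBE2.2, a branching enzyme, rose from below the floor (0.718) to 74, at least 6.9-fold and APL3, of ADP-glucose pyrophosphorylase, from below the floor (5.6) to 59.2, at least 5.52-fold. VHA-A3, of the proton pump of the vacuolar membrane, rose from 74.4 to 429, 5.76-fold. Single genes of methyl-group metabolism, chosen for their ratios, also rose. HMT-1, which makes methionine from homocysteine, rose from 21.4 to 289, 13.5-fold, MMT, which makes S-methylmethionine, from 36.6 to 203, 5.54-fold, and PMEAMT, of choline synthesis, from 21.8 to 224, 10.2-fold.

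Some redox genes were lower and others higher in imbibed seed. The glutaredoxin GRXC1 was among the most abundant stored transcripts of this class and fell from 2028 to 66.8, 30.3-fold; its paralog GRXC2 had 405 and 277. The plastid thioredoxin TY1 fell from 205 to 19.7, 10.4-fold, whereas its paralog ty2 rose from 34.1 to 81.1, 2.38-fold. Sulfiredoxin, SRX, which repairs over-oxidised peroxiredoxins, fell from 113 to 15.3, 7.42-fold, and AER, a reductase of reactive carbonyls, from 427 to 43.2, 9.9-fold. SRX and AER were chosen for their ratios and are not in the antioxidant list counted next. Of 12 measured antioxidant genes, 7 rose and 0 fell, with a median of 1.21. MSRB9, a methionine sulfoxide reductase, rose from 12.4 to 709, 57.4-fold, the highest ratio of the antioxidant list. Genes of the ascorbate cycle followed. Monodehydroascorbate reductase ATMDAR2 rose from below the floor (9.48) to 211, at least 19.7-fold, the ascorbate peroxidase SAPX from 34.5 to 184, 5.33-fold and glutathione reductase GR1 from 81.5 to 224, 2.74-fold. The second glutathione reductase, GR, had 116 and 115. Phosphomannomutase, PMM, which supplies mannose for ascorbate and glycoproteins, rose from below the floor (4.31) to 324, at least 30.2-fold.

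Aldehyde dehydrogenases also had members that rose and a member that fell. ALDH7B4, a stress-responsive member, fell from 852 to 162, 5.26-fold. ALDH11A3, a glyceraldehyde-3-phosphate dehydrogenase that makes NADPH, rose from 13.8 to 177, 12.8-fold, ALDH3F1 from 48.3 to 429, 8.89-fold and ALDH10A8, a betaine aldehyde dehydrogenase, from 58.5 to 362, 6.19-fold. Of 8 measured, 4 rose and 1 fell. The glutathione S-transferases GSTU20 and GSTU27 rose from below the floor (1.29) to 100.01, at least 9.31-fold and from 15.4 to 128, 8.31-fold, and GSTU16 fell from 88.9 to 37.5, 2.37-fold.

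The UDP-glycosyltransferases, which attach sugars to hormones and secondary metabolites, divided evenly. Of 34 measured, 10 rose and 10 fell, with a median of 0.01; with the poly-A controls set equal the split was 19 to 4. The stored side included UGT76E12, which fell from 347 to 15.1, 23-fold, its neighbour in name UGT76E11, which fell from 128 to below the floor (8.33), at least 11.9-fold, and UGT80B1, a sterol glucosyltransferase, which fell from 60.9 to 12.9, 4.72-fold. The side higher in imbibed seed included UGT74D1, an auxin glucosyltransferase, which rose from below the floor (6.18) to 82.6, at least 7.7-fold, and UGT78D1, a flavonol glycosyltransferase, which rose from below the floor (1.44) to 45.7, at least 4.26-fold. Within a single subfamily, UGT85A5 fell from 101 to below the floor (5), at least 9.45-fold and UGT85A2 rose from 13.5 to 108, 7.97-fold.

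Many cell wall genes rose. Under the scaling and floor used, except among the class III peroxidases, at least as many members stayed within 2-fold as rose in each wall list below. The expansins EXPA7 and EXPA18 of root hairs rose from below the floor (1.29) to 101, at least 9.45-fold and from below the floor (1.29) to 167, at least 15.6-fold. Of 20 measured genes of cellulose and hemicellulose synthesis and trimming, 9 rose, 1 fell and 10 stayed within 2-fold, with a median of 0.89. With the floor at the 25th percentile 14 rose and 3 fell, and at the 60th percentile 7 of 13 measured rose and 0 fell. COB, which orients cellulose microfibrils, rose from 60.1 to 422, 7.03-fold. CSLC04, which makes the glucan backbone of xyloglucan, rose from 13.8 to 139, 10.1-fold, and CSLD2, needed in root hairs, from 32.9 to 152, 4.63-fold; the related CSLC5 had 84.6 and 57.2. Of 10 measured glycosyl hydrolase 9 endoglucanases, 5 rose and 0 fell. With the floor at the 25th percentile 8 rose and 2 fell, and at the 60th percentile 3 of 5 measured rose and 0 fell. GH9B7 rose from 18.2 to 254, 13.9-fold, GH9C1 from below the floor (2.01) to 179, at least 16.7-fold and GH9C2 from below the floor (10.1) to 251, at least 23.4-fold. The remaining rises in this family under the floor used ended at lower signals. GH9B8 rose from below the floor (3.45) to 44.9, at least 4.18-fold and GH9B13 from below the floor (4.89) to 32.9, at least 3.06-fold.

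Among single wall proteins, the hydroxyproline-rich glycoprotein HRGP1 rose from 31 to 1088, 35.1-fold, by a probe set that may also read genes alike in sequence. SKU5, a wall protein of directional root growth, rose from below the floor (3.3) to 113, at least 10.5-fold, the one of 4 measured in its family to do so; its relative sks16 had 17.7 and 26.4. Of 18 measured genes of the trichome birefringence-like family, known for acetylation of wall polysaccharides, 7 rose and 0 fell. The rises were led by TBL25, from below the floor (6.18) to 96.7, at least 9-fold, and TBL39, from 15.4 to 87.5, 5.69-fold. With the floor at the 25th percentile 9 of the family rose and 2 fell. At the 60th percentile 2 of 10 measured rose and 0 fell. The class III peroxidases with a name had 5 measured members, of which 4 rose and 0 fell. PRXR1 rose from 68.5 to 569, 8.3-fold. EXO, known from brassinosteroid-promoted growth, rose from below the floor (2.44) to 164, at least 15.3-fold.

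**Figure D3:**
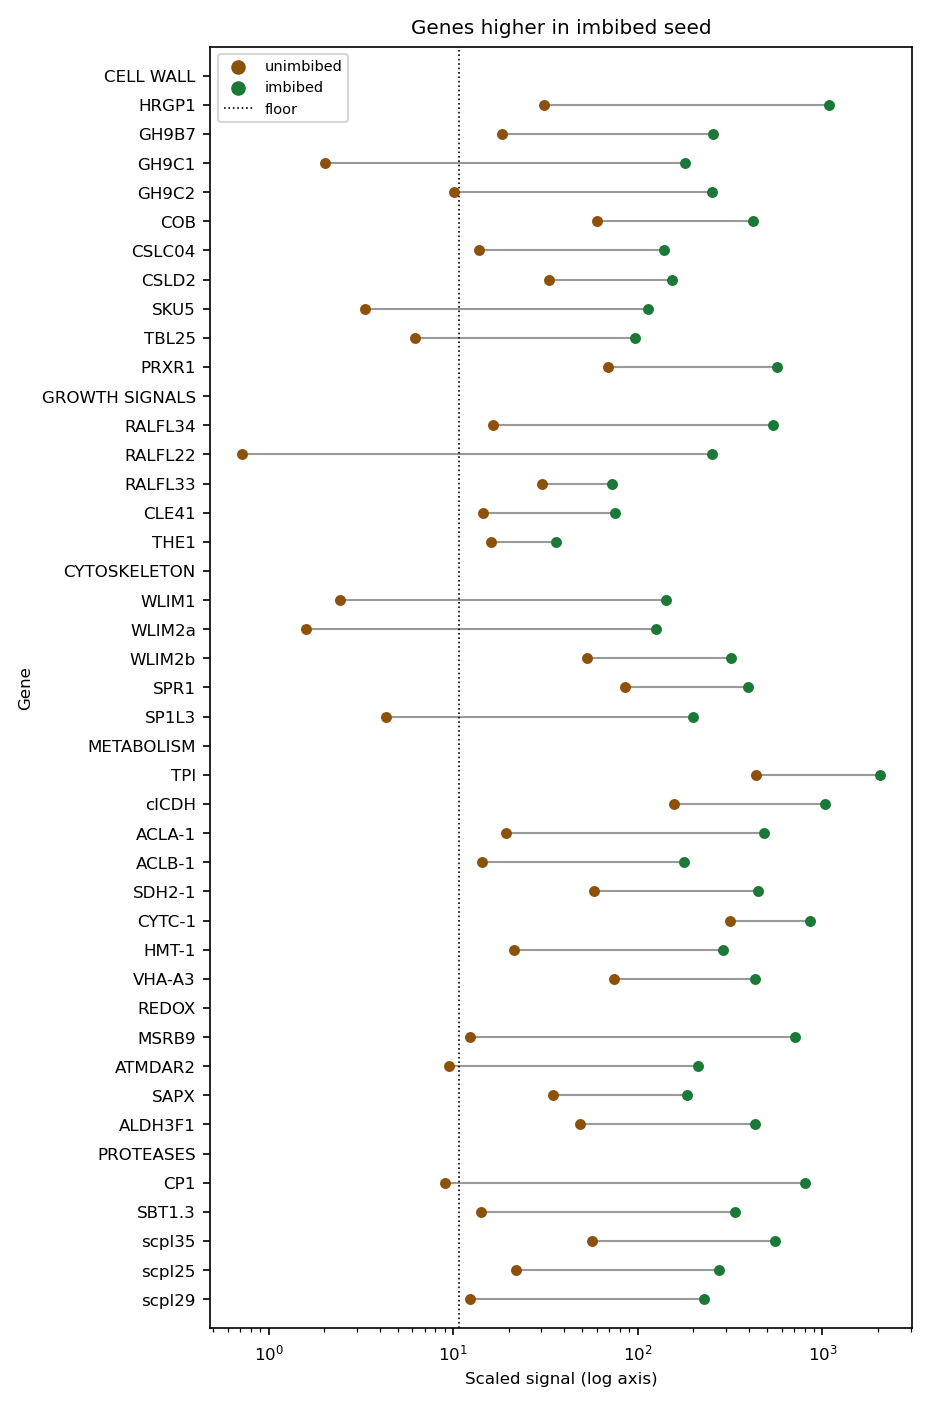
Scaled signals of named genes of the cell wall, growth signalling, cytoskeleton and metabolism in unimbibed seed (brown) and imbibed seed (green), joined by a line for each gene, on a log axis; the dotted line is the floor of 10.7. Every gene drawn was higher in imbibed seed, HRGP1 by 35.1-fold and TPI by 4.72-fold, and signals left of the dotted line are below the floor. The probe set of HRGP1 may also read genes alike in sequence.

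Growth peptides were higher in part. RALF peptides are secreted signals that act on wall-sensing receptor kinases. Of 8 measured, 5 rose and 0 fell, with a median of 1.26. With the floor at the 25th percentile 5 rose and 2 fell, and at the 60th percentile 4 of 5 measured rose and 0 fell. RALFL34 rose from 16.4 to 537, 32.8-fold and RALFL22 from below the floor (0.718) to 253, at least 23.6-fold. RALFL33 rose from 30.3 to 72, 2.38-fold. The receptor kinase FER, on which RALF peptides act, had 139 and 233, within 2-fold, and THE1, of the same receptor family, rose from 16.1 to 35.9, 2.23-fold. CLE41, a peptide that controls vascular stem cells, rose from 14.5 to 75.4, 5.2-fold. The calmodulin-like proteins CML38 and CML43 rose from below the floor (0.431) to 50.3, at least 4.68-fold and from below the floor (5.46) to 51.7, at least 4.81-fold.

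The cytoskeleton changed beyond the tubulins. LIM proteins bundle actin filaments, and 3 of 4 measured rose: WLIM1 from below the floor (2.44) to 142, at least 13.2-fold, WLIM2a from below the floor (1.58) to 125, at least 11.7-fold and WLIM2b from 52.7 to 319, 6.05-fold. PLIM2b, of the pollen class, had 31.9 and 50.3. SPR1, which keeps cortical microtubules in order, rose from 84.6 to 396, 4.68-fold, and its relative SP1L3 from below the floor (4.31) to 199.7, at least 18.6-fold. The actin-binding protein NET3A moved the other way, from 236 to below the floor (0.439), at least 22-fold. Of 6 measured members of its family, 3 rose and 1 fell. RAB6A, a GTPase of the Golgi, rose from 17.1 to 119, 6.97-fold. Of 10 measured prenylated Rab acceptors, 4 rose, 2 fell and 4 stayed within 2-fold. PRA7 fell from 553 to 84.5, 6.54-fold and PRA1.B4 rose from below the floor (6.9) to 134, at least 12.5-fold. Most tetraspanins did not move: of 10 measured, 2 rose, 1 fell and 7 stayed within 2-fold. TET4 fell from 527 to below the floor (5.18), at least 49.1-fold. TET7 rose from 23.7 to 151, 6.37-fold and TET3 from below the floor (7.33) to 80.009, at least 7.45-fold.

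Quality-control genes of the endoplasmic reticulum went both ways. Of 5 measured in a list of Derlins and quality control, 2 rose, 2 fell and 1 stayed within 2-fold. Calreticulin CRT1b, a chaperone of glycoproteins, rose from 22.1 to 739, 33.4-fold, and the co-chaperone ATERDJ3B from 20.5 to 184, 8.97-fold. DER1 and DER2.1, Derlins that take misfolded proteins out for degradation, fell from 151 to 52.4, 2.89-fold and from 128 to 48, 2.67-fold, and the stress sensor BZIP28 from 115 to 43.2, 2.65-fold. A second probe set of DER1 was below the floor in both states. With the poly-A controls set equal the log2 ratios of DER1, DER2.1 and BZIP28 were 0.15, 0.26 and 0.27. In the cytosol the co-chaperones Hop3 and Fes1A fell from 71 to below the floor (6.23), at least 6.61-fold and from 326 to 49.7, 6.57-fold. The heat-stress protein HSA32 fell from 104 to 20.8, 5.02-fold. Of 8 measured genes in the list of HSP70, HSP90, HSP101 and chaperonins, 2 rose, 2 fell and 4 stayed within 2-fold. CRT1b is in neither list.

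Hormone genes moved member by member. The gibberellin receptors GID1A and GID1C fell from 307 to 34.8, 8.82-fold and from 46.7 to 13.6, 3.43-fold, while GID1B rose from below the floor (7.18) to 27.9, at least 2.6-fold. SPY, a repressor of gibberellin responses, fell from 179 to 62.7, 2.86-fold. Of 11 measured auxin genes, 3 rose and 1 fell, with a median of -0.57 that was 0.02, 0.06 and 1.16 with the signals as deposited, the hybridisation controls and the poly-A controls set equal. The conjugating enzyme WES1, also named GH3.5, rose from 18.4 to 119, 6.5-fold, and IAA18, a repressor of auxin-responsive genes, rose from 12.8 to 41.9, 3.28-fold, while IAA30 of the same repressor family fell from 26.2 to below the floor (8.16), at least 2.44-fold. EIN3, the factor that turns on ethylene responses, fell from 439 to 143, 3.07-fold. OPCL1, of jasmonate synthesis, rose from 11.8 to 59.1, 5.02-fold. No gene of the abscisic acid list was matched by symbol. Of 7 cytokinin and brassinosteroid genes with a probe set, 2 were measured and both stayed within 2-fold.

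Transcription factors that fell included regulators of stress and seed genes. The zinc finger protein STZ, a repressor known from drought, cold and salt stress, fell from 605 to 34.2, 17.7-fold. The MADS factor AGL67, known from seed, fell from 157 to below the floor (2.11), at least 14.7-fold, and AGL18 from 54.7 to 14.9, 3.67-fold. Of 11 measured MADS factors, 3 fell and 0 rose, and under the poly-A controls 2 fell and 3 rose. The bZIP factor EEL fell from 141 to 13.6, 10.4-fold and BZIP53 had 111 and 69.7. NAC014 fell from 62.5 to below the floor (3.77), at least 5.82-fold.

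Iron-related bHLH factors went both ways. bHLH121 fell from 142 to 30.4, 4.65-fold, bHLH115 rose from 18.1 to 156, 8.6-fold, and ILR3 and bHLH104 had 255 and 150.1, and 45 and 37.1. Of 12 measured bHLH factors, 4 rose and 1 fell. SPT, a regulator of germination in response to light and cold, rose from 17.4 to 49.9, 2.87-fold, and its close relative ALC from below the floor (3.74) to 37.3, at least 3.47-fold. The light-response factor HYH rose from below the floor (9.05) to 50.6, at least 4.71-fold and bZIP44 from 11.4 to 53.9, 4.75-fold. Of the clock genes, GI fell from 110.2 to 49.5, 2.23-fold and COR27 from 79 to below the floor (5.53), at least 7.36-fold; each state was sampled once, and the hour of sampling is not given in the sources used here.

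Some transporter families held members that rose and members that fell. The SWEET sugar transporters had 11 measured members, of which 2 rose, 2 fell and 7 stayed within 2-fold. Neither share was above that of all measured loci with a symbol. SWEET6 fell from 474 to 13.2, 35.8-fold and SWEET1 from 333 to 61.5, 5.42-fold. SWEET11 rose from 16.5 to 54.5, 3.3-fold, and SAG29, also named SWEET15, from below the floor (8.33) to 70.008, at least 6.52-fold. The vacuolar sugar importer TMT1 rose from 30.8 to 136, 4.42-fold and its paralog TMT2 fell from 79.5 to 39.7, 2-fold. The glucosinolate importers GTR1 and GTR2 rose from 28.9 to 61.1, 2.11-fold and from 24.7 to 124, 5.03-fold. NRT2.5, a nitrate transporter of nitrogen-starved plants, fell from 44.1 to below the floor (9.47), at least 4.11-fold, and OCT4, of the organic cation transporter family, from 278 to 26.4, 10.5-fold. ATOEP16-2, of the outer envelope of plastids, fell from 4649 to below the floor (6.76), at least 433-fold, and OEP16-3, which shares its family name, rose from 151 to 460.5, 3.05-fold.

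Defence peptides were among the most abundant stored transcripts. The defensin LCR67, also named PDF1.1, fell from 7036 to 72, 97.7-fold. PDF2.1 fell from 2720.5 to below the floor (0.526), at least 253-fold and PDF1.2b from 636 to 13.8, 46.1-fold. The probe set of PDF1.2b may also read genes alike in sequence. Other defensins rose: LCR69 from 204 to 852, 4.18-fold and LCR68 from 46.3 to 183, 3.96-fold. Of 8 measured, 4 fell and 2 rose, with a median of -1.19 that stayed negative under each scaling. The β-glucosidases also went both ways. BGLU19 fell from 4271 to below the floor (6.14), at least 398-fold, and 7 of 14 measured rose, among them BGLU15, from below the floor (10.6) to 112, at least 10.4-fold, BGLU44, from 51.4 to 227, 4.41-fold, and PYK10, the enzyme of ER bodies, from 12.9 to 3296, 255-fold.

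**Figure D4:**
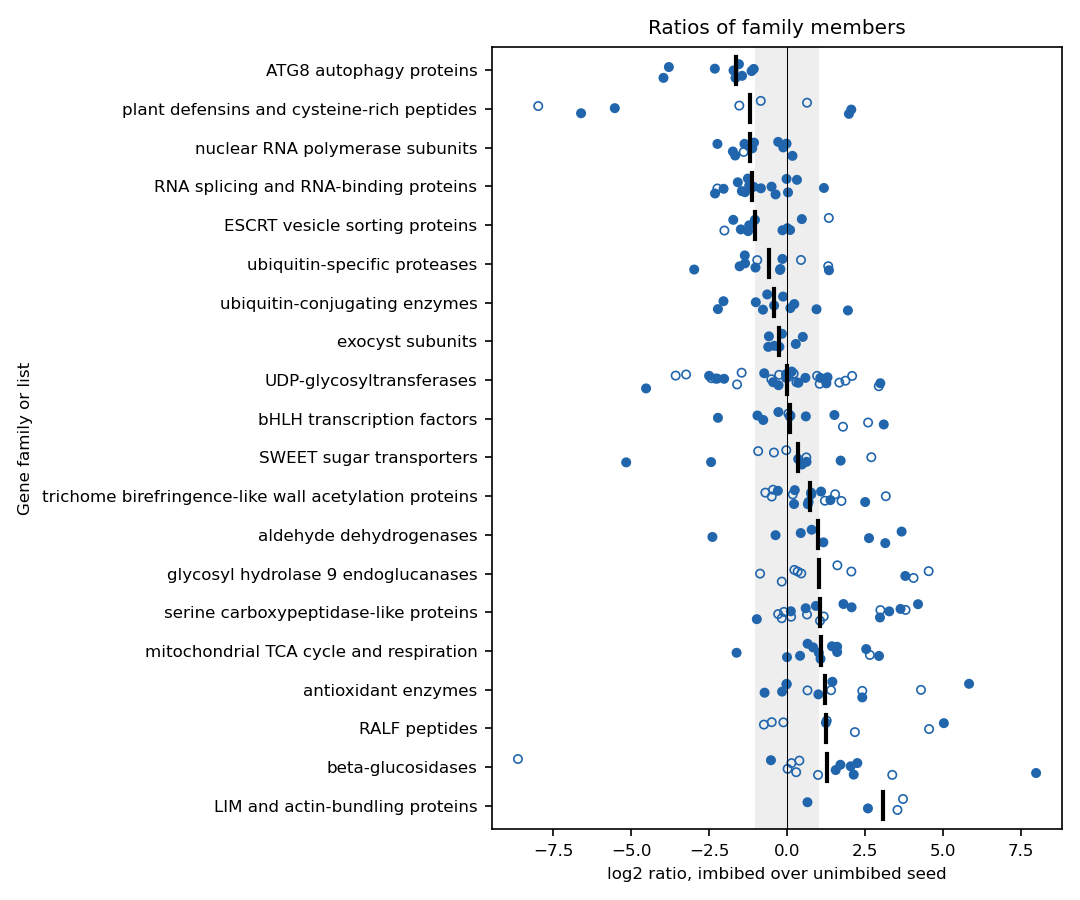
Log2 ratio of imbibed over unimbibed seed (x axis) for each measured member of 20 gene families (rows, ordered by median). Filled points were above the floor on both arrays, open points had at least one signal at the floor, black bars are family medians and the grey band is less than 2-fold. All ATG8 members lie left of the band and the UDP-glycosyltransferases lie on both sides; with the poly-A controls set equal the medians of ATG8, ESCRT, RNA polymerase and splicing genes are above 0.

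Of 6 measured cell cycle regulators, 5 were within 2-fold, and the Aurora kinase AUR2 fell from 64.4 to 21.8, 2.95-fold. With the poly-A controls set equal 4 of these rose. Of 7 genes of DNA replication and chromatin assembly, 3 rose, all from below the floor and to dim signals, such as PRL, of the replicative helicase, from below the floor (1.29) to 34.2, at least 3.19-fold. With the floor at the 60th percentile 0 of these rose. Of markers of other tissues, the flower and pollen genes ACT12, AGL65 and TUA1 stayed within 2-fold, at 11.6 and 2.19, 30.3 and 24.5, and 34.9 and 61.4. The stomatal-lineage gene SPCH stood at 2.16 and 11.6, at about the floor, and JKD, of the root meristem, rose from below the floor (3.59) to 24.1, at least 2.25-fold. The seed-coat gene BAN was below the floor in both states.

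Across 81 gene lists with at least 3 measured members, 46 held members that rose and members that fell, 23 held only members that rose and 10 only members that fell. For the lists drawn as single gene families the counts were 20, 11 and 7 of 39. Lists with more measured members have more chances to hold calls of both kinds, and some lists share genes.

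**Figure D5:**
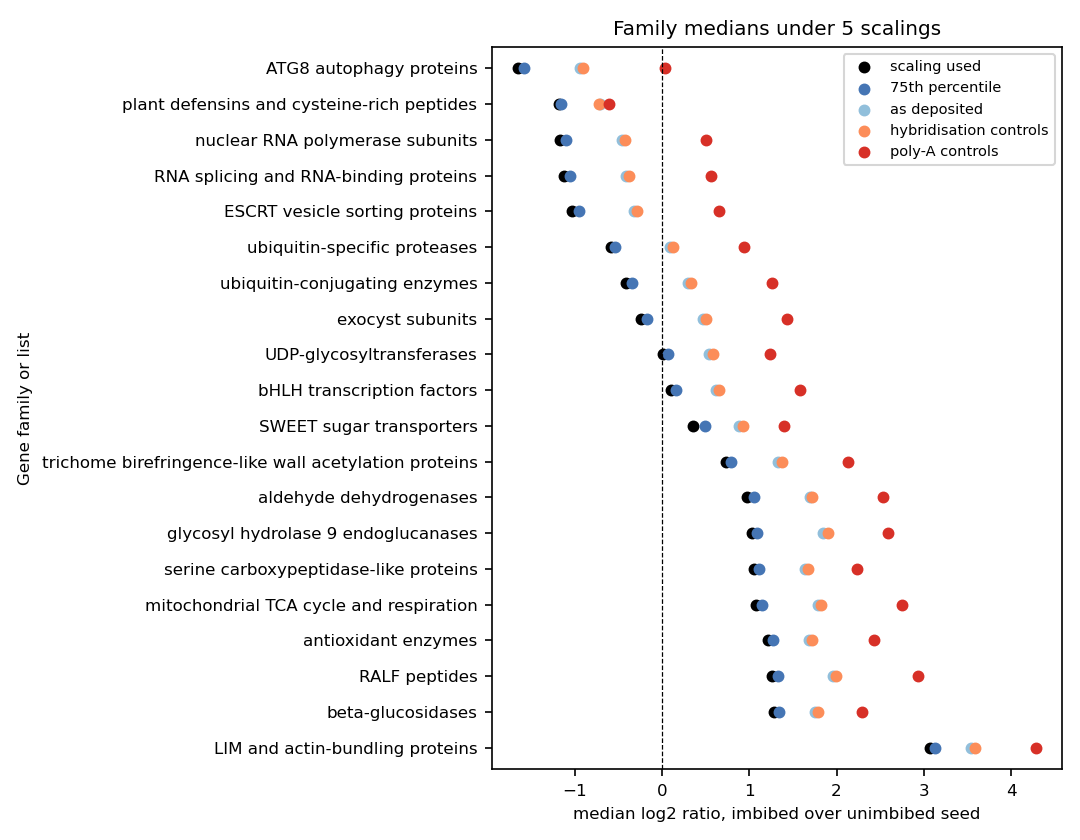
Median log2 ratio of imbibed over unimbibed seed (x axis) of 20 gene families (rows) under the scaling used and 4 others (colours). The dashed line is 0; every family lies further right with the poly-A controls set equal, where the median of ATG8 is 0.03 and that of the RNA polymerase subunits 0.51.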

How the data were processed

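The deposited values are one intensity per probe set on a linear scale, and the submitters' processing notes name MAS5 as the tool; neither a version nor a scaling target is given in the sources used here, and detection calls were not used. The 3 columns were matched to samples by title and 0 were left unmapped. The 2% trimmed means were 26.5 and 43.4, and arrays were multiplied by 1.44 and 0.877 to reach the mean trimmed mean of the 3 arrays. Such scaling hides any change in messenger RNA per seed. Signals below 10.7 were raised to it before the log2 ratio was taken, and 57% and 61.7% of probe sets were above it in unimbibed and imbibed seed. The number of arrays limits the precision.

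The platform annotation, updated through the RefSeq gene table of TAIR10.1, gave a single gene for 13513 probe sets, more than one for 503 and no name for 8730; 13436 matched that table and 77 kept an older name. Of 13355 loci, 1557 had a symbol and could be placed in a list. A locus has the mean over its measured probe sets. Members and lists were chosen with earlier results of these data known: 65 lists were planned, and 42 were added by name alone once the annotation was seen, the last of them, of mitochondrially encoded genes, after their values were seen. The rule for naming genes took the 40 highest and 40 lowest ratios with both signals above the floor, the 20 brightest calls in each direction against a signal at the floor, and in each list up to 4 highest, 4 lowest and 2 brightest, taking first genes of known function; others, such as paralogs set beside them, were chosen after their values were seen. The procedure was tested on simulated data. Other scalings, floors, a 4-fold call and the brightest probe set per locus were tried. Python 3.11.15, numpy 2.4.6, pandas 2.3.3 and matplotlib 3.10.9 were used.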

Additional observations from a re-analysis of the deposited data

How the results depend on the processing

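Each state has a single array, so no array could be left out and the replicate spread is unknown. No paired analysis was possible because each state was measured once. The search of promoter sequences for motifs was not run, as no sequence was used here. The counts of probe sets depended most on the scaling. Main counts were 3669 higher and 3425 lower, or 51.7% higher. With the signals as deposited they were 5671 and 1820 (75.7%). With the hybridisation controls set equal they were 5837 and 1775 (76.7%). With the poly-A controls set equal they were 9789 and 813 (92.3%). Without a floor, which counts every probe set as measured, they were 6804 and 5874, and at 4-fold 1588 and 1288. Under 75th percentile scaling and floors at the 25th and 60th percentiles the counts stayed within 1.5 times, and the share within 10 percentage points. Of the 103 genes of the text that rose, 103 were at least 2-fold higher under each other scaling, and 88 with the floor at the 60th percentile, which leaves fewer dim genes measured. Every other scaling shifted the median log2 ratio upward, by 0.06 to 1.21. The scalings could therefore hardly take a call from a gene that rose, and they are no check on the rises. Of the 83 that fell, 62, 60 and 34 were at least 2-fold lower as deposited, with the hybridisation controls and with the poly-A controls set equal. With the poly-A controls set equal, log2 ratios below 0 turned above 0 for AIM1 (0.26), ATG8G (0.61), ATU2AF35A (0.23), ATU2AF65A (0.10), AUR2 (0.12), BZIP28 (0.27), DER1 (0.15), DER2.1 (0.26), EIN3 (0.064), GI (0.53), GSTU16 (0.43), IAA30 (0.00013), NDB2 (0.061), NRPB12 (0.017), SPY (0.17), TMT2 (0.68), U2AF35B (0.56), VPS2.1 (0.20), VPS46.2 (0.47) and ZAP1 (0.11). The family medians that turned were 0.028 for ATG8 autophagy proteins, 0.56 for RNA splicing and RNA-binding proteins, 0.51 for nuclear RNA polymerase subunits, 0.65 for ESCRT vesicle sorting proteins and 0.52 for LSM RNA-binding proteins. Without a floor SDH2-1 became -0.19 and DER1 0.26, because a second probe set of each, below the floor in both states, then entered the mean. Dim signals limit the ratios of genes near the floor.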

Other observations

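Some further families were not described above. Of 9 measured IQ-domain proteins, calmodulin-binding scaffolds of microtubules and membranes, 3 rose and 0 fell, led by IQD31, from 38.1 to 188, 4.93-fold, and IQD30, from 17.4 to 64.8, 3.73-fold. Of 12 measured TON1 recruiting motif proteins, 3 rose and 2 fell. TRM20 fell from 199 to 52.7, 3.78-fold and TRM19 rose from 11.8 to 34, 2.89-fold. The shares that rose in both groups lie near the 29.7% of all measured loci with a symbol. The glyoxalases GLX2-4 and GLX2-5 fell from 80.8 to 20.4, 3.97-fold and from 179 to 41.5, 4.32-fold, while GLX2-1 had 49 and 59.2. Of 11 measured cytochrome P450 genes, 3 fell, all of the CYP71B group, with CYP71B28 falling from 77.2 to 14.7, 5.27-fold; CYP71B6 rose from 46.4 to 108, 2.32-fold. Of the WRKY factors, ZAP1 fell from 67.5 to 22.7, 2.97-fold and WRKY47 rose from below the floor (2.73) to 30.2, at least 2.81-fold. Of 6 measured chromatin remodelling ATPases, 2 fell, CHR18 from 29.9 to below the floor (1.84), at least 2.78-fold and CHR23 from 29.3 to below the floor (5.61), at least 2.73-fold, and CHR17 rose from below the floor (6.18) to 38.4, at least 3.58-fold. With the poly-A controls set equal 2 of these ATPases rose and 0 fell.

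The spiked-in controls differed between the arrays. After scaling, 18 hybridisation control probe sets had a mean log2 ratio of -0.74 (SD 0.17) and 27 poly-A control probe sets -1.68 (SD 0.25). These SDs are over control probe sets of one pair of arrays, several of which read the same spike.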
